A study of Mus musculus with 6 samples.

Results

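Immunoglobulin constant regions and plasma cell genes were examined in bulk RNA-seq of colorectal tumors, as the 10 genes *Igha*, *Ighm*, *Ighg1*, *Ighg2b*, *Ighg2c*, *Igkc*, *Jchain*, *Mzb1*, *Pigr* and *Cd79a*. They were chosen by name among the 54167 genes of the deposited table, and all 10 were found there. The tumors came from C57BL/6J mice. According to the methods these were males that received 10 mg/kg azoxymethane (AOM), a carcinogen, at 8 weeks of age. They then received cycles of 7 days of 2.5% dextran sulfate sodium (DSS), an agent that damages and inflames the colon lining. Recovery on regular drinking water followed the DSS of each cycle, and collection was on day 98. Of the 6 tumors, 3 were Trp53fl/fl, with *Trp53* flanked by loxP sites and no Cre, and 3 were VP, that is, Trp53fl/fl with Cre under the villin promoter, so both groups carried the floxed alleles and the same AOM/DSS treatment. The villin promoter is active in intestinal epithelium, so the B-lineage cells of VP tumors were not the cells targeted for deletion. The tumors were dissected from the surrounding tissue and read as whole tissue, in which fewer cells of a type and less RNA per cell cannot be told apart. The labels do not say whether the 3 tumors of a genotype came from 3 mice, so the p-values below measure the spread between these tumors.

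An antibody consists of heavy and light chains, each with a variable (V) region that binds antigen and a constant region that sets its class. Naive B cells carry IgM and IgD on their surface, and class switching replaces the mu constant region by gamma (IgG), epsilon (IgE) or alpha (IgA). Plasma cells secrete the antibody, and those of the gut lining mostly make IgA. IgA molecules are joined through the J chain, encoded by *Jchain*, and are carried across the epithelium into the lumen by the polymeric immunoglobulin receptor, encoded by *Pigr*. *Mzb1* encodes a chaperone of immunoglobulin assembly in the endoplasmic reticulum, and *Cd79a* encodes a signalling chain of the B cell receptor.

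The values are TPM, a unit that corrects for the length of each transcript and brings every tumor to 1 total, which is meant to make levels of different genes comparable. Between immunoglobulin genes the comparison is approximate. The summed V region genes were at 1.36 to 1.90 times the constant genes for the heavy chain and at 2.08 to 2.73 times *Igkc* for kappa. They keep no read counts, so the depth behind each value is unknown. Fold changes are VP minus Trp53fl/fl on the log2(TPM + 1) scale, tested by limma in a fit of 15117 genes that reached 1 TPM or more in 3 or more tumors, a filter that all 10 genes passed. Coordinates are those of the same gene IDs in the GENCODE M21 annotation of GRCm38, not of the deposited table. *Trp53* ranged from 99.30 to 147.45 TPM in Trp53fl/fl and from 27.83 to 38.45 TPM in VP tumors (log2 fold change -1.87, limma adjusted p = 0.0207) and so was lower in every tumor labelled as carrying Cre. The adjusted p of *Trp53* was between 0.0553 and 0.0986 when Trp53fl/fl replicate 1 or 3 or VP replicate 1 or 2 was left out.

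The constant regions of the IgG classes are related in sequence, and the hinge, the flexible link between the antigen-binding arms and the stem, is among the stretches that tell them apart. The secreted coding sequences of *Ighg2b* and *Ighg2c* were 85.7% identical, those of *Ighg1* and *Ighg2b* 74.7% and those of *Ighg1* and *Ighg2c* 75.4%. How reads that match more than 1 of these genes were assigned is not given in the sources used here, and whether this touched the split among the IgG genes was not tested. The whole codons of the hinge exons are given here from the GENCODE M21 transcripts, with the cysteine codons in capitals. They lie on the minus strand of chromosome 12 (GRCm38), at chr12:113329845-113329880 for *Ighg1*, chr12:113307262-113307324 for *Ighg2b*, chr12:113288264-113288323 for *Ighg2c* and chr12:113360530-113360574 for *Ighg3*.
Ighg1: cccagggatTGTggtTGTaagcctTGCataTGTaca
Ighg2b: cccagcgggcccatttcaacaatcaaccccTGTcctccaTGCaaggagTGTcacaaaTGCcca
Ighg2c: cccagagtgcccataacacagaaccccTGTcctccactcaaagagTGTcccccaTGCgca
Ighg3: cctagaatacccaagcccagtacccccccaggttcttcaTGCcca
The hinge exons held 12, 21, 20 and 15 whole codons, of which 4, 4, 3 and 1 were cysteine codons.

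The 2 heavy chains that the J chain joins into polymers, alpha and mu, share a tailpiece at the end of the secreted form. Its last 20 codons are shown for both genes, with the second-last codon, the cysteine to which the J chain binds, in capitals. They lie at chr12:113258771-113258830 (*Igha*) and chr12:113420870-113420929 (*Ighm*), both on the minus strand of GRCm38.
Igha: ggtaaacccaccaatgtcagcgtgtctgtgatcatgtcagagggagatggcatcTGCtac
Ighm: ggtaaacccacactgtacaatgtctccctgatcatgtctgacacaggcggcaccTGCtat

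IgA with kappa light chains dominated the immunoglobulin transcripts of every tumor, whatever the genotype. *Igkc* (ENSMUSG00000076609, chr6:70726435-70726966, plus strand), the kappa constant region, was the most abundant of the 10 genes and ranked 11 among all genes by mean TPM. *Igha* (ENSMUSG00000095079, chr12:113254830-113260236, minus strand) followed at rank 15, and *Igkc* was above *Igha* in all 6 tumors although their ranges overlapped. *Pigr* and *Jchain* came next, with *Pigr* higher in 5 of 6 tumors, and the lowest *Igha* value lay above the highest *Pigr* value. *Ighg2c*, *Ighg2b* and *Ighg1* followed in this order of means below all *Jchain* values, and *Ighg2b* exceeded *Ighg1* in only 3 of 6 tumors. *Ighm* and *Mzb1* could not be ordered, each being the higher in 3 tumors, and every *Cd79a* value lay below every *Mzb1* value.

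**Figure D1:**
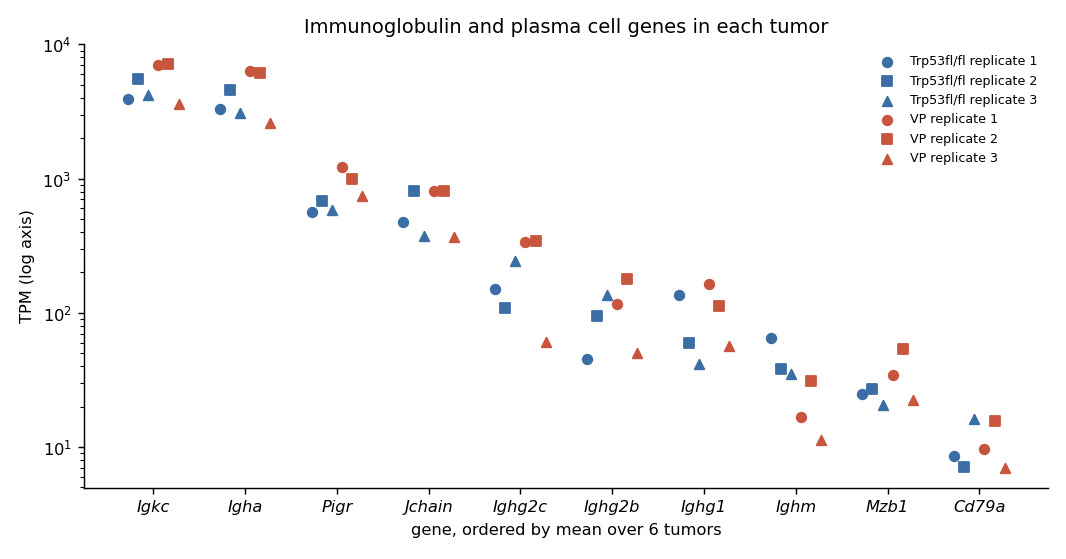
TPM (log axis) of the 10 genes in each of the 6 tumors, ordered by mean, with Trp53fl/fl tumors in blue and VP tumors in red and 1 symbol per tumor. *Igkc* and *Igha* stand above all other genes, the genotypes are apart for *Pigr* and *Ighm*, and VP replicate 3 lies below VP replicates 1 and 2 for all 10 genes.

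None of the 10 genes passed the adjustment over all genes (limma adjusted p under 0.05), against 25 genes or 0.165% of all genes tested. An unadjusted p under 0.05 was reached by 2 of 10, *Ighm* and *Pigr*, against 12.5% of all genes tested. The same 2 genes showed no overlap between the genotypes, against 19.3% of all genes tested. Of the 10 log2 fold changes, 9 were above 0 with a median of 0.30, while 5930 of all genes tested were above 0 and 9187 below, with a median of -0.07. VP replicate 3 decided how many genes stood apart. It held the lowest value of the 6 tumors for 6 of the 10 genes and for 19.1% of all genes tested, while VP replicates 1 and 2 held the highest value for 3 and 5 of the 10. Without VP replicate 3, 6 genes had an unadjusted p under 0.05 and no overlap (*Igha*, *Ighg2c*, *Ighm*, *Igkc*, *Mzb1* and *Pigr*), against 12.7% and 32.0% of all genes tested, and the median log2 fold change was 0.79. Without any other single tumor, only *Ighm* and *Pigr* met either criterion. In those fits 7.48% to 16.1% of all genes tested had an unadjusted p under 0.05 and 25.1% to 36.4% showed no overlap.

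**Figure D2:**
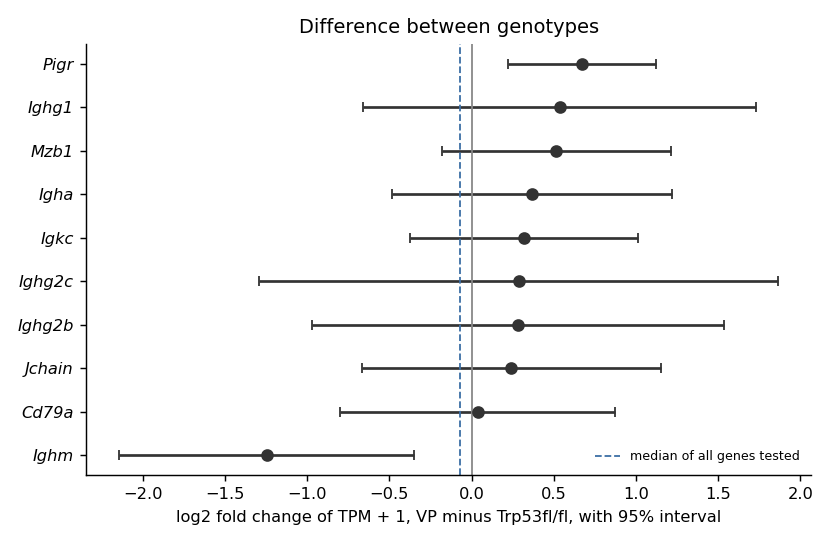
Log2 fold change (VP minus Trp53fl/fl, on the TPM + 1 scale) of each gene with its 95% interval from limma, with 3 tumors per genotype. Intervals of *Pigr* (0.22 to 1.13) and *Ighm* (-2.14 to -0.35) leave out 0, those of the other 8 genes include it, and the dashed line marks the median of all genes tested (-0.07).

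*Ighm* (ENSMUSG00000076617, chr12:113418558-113422730, minus strand), the constant region of IgM, was the 1 gene of the 10 with lower values in VP tumors. The Trp53fl/fl tumors had 65.34, 38.31 and 34.75 TPM, and the VP tumors 16.69, 31.20 and 11.24 TPM. All 3 VP tumors lay below all 3 Trp53fl/fl tumors, with VP replicate 3 the lowest and VP replicate 2 close to the Trp53fl/fl range. The means were 46.1 ± 16.7 TPM (SD, n = 3) and 19.7 ± 10.3 TPM (SD, n = 3), and the log2 fold change was -1.25 ± 0.38 (SE), a fold of 0.421 with a 95% interval of 0.226 to 0.785 (limma adjusted p = 0.317). As a share of the heavy chain constant transcripts, *Ighm* took 1.75%, 0.780% and 0.976% in Trp53fl/fl tumors and 0.239%, 0.455% and 0.403% in VP tumors. The shares did not overlap either. The ratio of *Igha* to *Ighm* was 50.8, 120 and 89.1 in Trp53fl/fl tumors and 380, 198 and 232 in VP tumors, again apart, although *Igha* itself overlapped. These shares and ratios rest on the same *Ighm* values and add no independent support.

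Other genes of the B cell receptor overlapped between the genotypes. *Cd79a* (ENSMUSG00000003379, chr7:24897381-24902197, plus strand), present from early B cells onward and low in plasma cells, was at 8.52, 7.05 and 16.17 TPM in Trp53fl/fl tumors and at 9.73, 15.53 and 7.03 TPM in VP tumors. Its highest values came from Trp53fl/fl replicate 3 and VP replicate 2, and the genotypes overlapped fully (log2 fold change 0.04 ± 0.36, limma adjusted p = 0.972). Under epithelial centring the *Cd79a* fold change was -0.13, so its sign depends on the scaling. The ratio of *Ighm* to *Cd79a* was 7.67, 5.43 and 2.15 in Trp53fl/fl tumors and 1.72, 2.01 and 1.60 in VP tumors. *Ighd*, the IgD constant region that naive B cells express with *Ighm*, was at 1.29, 0.39 and 7.22 TPM in Trp53fl/fl tumors and at 0.30, 3.50 and 1.07 TPM in VP tumors. Like *Cd79a*, *Ighd* was highest in Trp53fl/fl replicate 3 and next in VP replicate 2 (log2 fold change -0.37, limma adjusted p = 0.840).

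*Pigr* (ENSMUSG00000026417, chr1:130826684-130852249, plus strand), made by epithelial cells rather than by B cells, had the highest log2 fold change of the 10 genes. The Trp53fl/fl tumors had 568.57, 677.77 and 585.53 TPM, and the VP tumors 1230.98, 998.49 and 745.34 TPM. Every VP tumor exceeded every Trp53fl/fl tumor, VP replicate 1 by the widest margin and VP replicate 3 by the narrowest. The means were 611 ± 58.8 TPM (SD, n = 3) and 992 ± 243 TPM (SD, n = 3), a fold of 1.59 with a 95% interval of 1.17 to 2.18 (log2 fold change 0.67 ± 0.19, limma adjusted p = 0.302). Epithelial marker transcripts were also higher in sum, although not marker by marker. The summed TPM of the 12 epithelial markers was 11359 to 11872 in Trp53fl/fl and 12840 to 13912 in VP tumors. Of the 12 log2 fold changes, 10 were above 0, with a median of 0.15. Among these 10, *Epcam*, *Krt18* and *Cdh1* were near 0, at 0.003, 0.004 and 0.02. *Krt20* and *Cldn4* were both at -0.03. An unadjusted p under 0.05 was reached by 3 of 12, all higher, against 12.5% of all genes tested. These were *Krt19*, *Cldn7* and *Lgals4*, at 0.39, 0.37 and 0.47 on the log2 scale. After centring each tumor on the 12 epithelial markers, *Pigr* was at 599 to 729 in Trp53fl/fl and 703 to 1173 in VP tumors, so that VP replicate 3 fell within the Trp53fl/fl range. The change then came to 0.51 on the log2 scale (limma adjusted p = 0.170). With this centring 3931 of all 15117 genes tested had an unadjusted p under 0.05, against 1892 without it.

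The promoter of *Pigr* is shown because the gene had the highest fold change of the 10 and is expressed by epithelial cells. The 250 bases before its start in RefSeq (GRCm38.p6, chr1:130826434-130826683, plus strand) hold the letters CACGTG, 1 form of the E-box. These letters are in capitals and end 66 bases before the start. Other forms of the E-box were not searched.
Pigr: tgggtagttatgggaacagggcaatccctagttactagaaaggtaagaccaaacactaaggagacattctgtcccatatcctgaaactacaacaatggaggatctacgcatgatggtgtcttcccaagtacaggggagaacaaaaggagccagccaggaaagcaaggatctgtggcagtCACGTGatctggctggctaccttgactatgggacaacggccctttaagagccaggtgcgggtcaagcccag
CACGTG, searched on both strands and chosen after the sequence was seen, was present in 1978 of 32851 promoters of the same length (6.02%). It was present in 1 of the 3 genes of the 10 with a promoter sequence (*Pigr*, *Jchain* and *Cd79a*). The octamer ATGCAAAT of immunoglobulin promoters, also searched on both strands, was in 526 of these promoters (1.60%) and in none of the 3.

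*Igha*, *Igkc* and *Jchain*, the parts of dimeric IgA, shared 1 pattern over the tumors. *Igha* was at 3322.41, 4607.29 and 3095.71 TPM in Trp53fl/fl tumors and at 6341.40, 6173.10 and 2605.81 TPM in VP tumors. VP replicates 1 and 2 exceeded all Trp53fl/fl tumors and VP replicate 3 lay below them all, so the genotypes overlapped. The log2 fold change was 0.37 ± 0.36 (limma adjusted p = 0.677), and its 95% interval as a fold ran from 0.715 to 2.33. *Igkc* was at 3948.87, 5546.27 and 4235.65 TPM in Trp53fl/fl tumors and at 7045.30, 7131.21 and 3598.48 TPM in VP tumors (log2 fold change 0.32 ± 0.29, limma adjusted p = 0.657). Its order over the tumors differed from that of *Igha* only in which of the 2 highest VP tumors and which of the 2 lowest Trp53fl/fl tumors came first. *Jchain* (ENSMUSG00000067149, chr5:88519809-88527891, minus strand) was at 472.28, 805.93 and 376.26 TPM in Trp53fl/fl tumors and at 803.20, 808.57 and 364.45 TPM in VP tumors (log2 fold change 0.24 ± 0.39, limma adjusted p = 0.808). Here Trp53fl/fl replicate 2 was level with VP replicates 1 and 2. The ratio of *Igha* to *Jchain* stayed between 5.72 and 8.23 over the 6 tumors, and that of all light to all heavy chain constant transcripts between 1.02 and 1.30. *Igha* to *Pigr* ranged from 5.29 to 6.80 in Trp53fl/fl tumors and from 3.50 to 6.18 in VP tumors.

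*Mzb1* (ENSMUSG00000024353) was at 24.76, 26.86 and 20.71 TPM in Trp53fl/fl tumors and at 34.16, 54.26 and 22.41 TPM in VP tumors. Its highest value was in VP replicate 2, and VP replicate 3 fell between Trp53fl/fl replicates 3 and 1 (log2 fold change 0.52 ± 0.30, limma adjusted p = 0.496). The spread was wider in VP tumors, with 36.9 ± 16.1 TPM (SD, n = 3) against 24.1 ± 3.13 TPM (SD, n = 3). Smooth muscle transcripts also differed most among the VP tumors, with a summed TPM over 6 markers of 873 in replicate 1, 1347 in replicate 2 and 415 in replicate 3, against 488 to 809 in Trp53fl/fl tumors. The part of tissue composition in the position of VP replicate 3 was not tested.

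The IgG constant genes varied more from tumor to tumor than *Igha*, each with its own order. The highest of the 6 values was 3.94, 3.95 and 5.65 times the lowest for *Ighg1*, *Ighg2b* and *Ighg2c*, against 2.43 times for *Igha*. *Ighg1* (ENSMUSG00000076614, chr12:113325240-113330523, minus strand) was at 135.43, 59.17 and 41.33 TPM in Trp53fl/fl tumors and at 162.87, 111.63 and 56.37 TPM in VP tumors (log2 fold change 0.54 ± 0.51, limma adjusted p = 0.668). *Ighg2b* (ENSMUSG00000076613, chr12:113302965-113307933, minus strand) was at 45.00, 95.25 and 135.95 TPM in Trp53fl/fl tumors and at 117.35, 177.91 and 50.56 TPM in VP tumors (log2 fold change 0.28 ± 0.53, limma adjusted p = 0.837). Within Trp53fl/fl tumors, replicate 1 was thus the highest for *Ighg1* and the lowest for *Ighg2b*. *Ighg2c* (ENSMUSG00000076612, chr12:113285325-113288932, minus strand), the IgG2 gene that C57BL/6 mice carry in place of *Ighg2a*, was at 151.38, 107.92 and 243.03 TPM in Trp53fl/fl tumors and at 339.56, 345.28 and 61.16 TPM in VP tumors (log2 fold change 0.29 ± 0.67, limma adjusted p = 0.873). VP replicate 3 again lay below every other tumor, with the other VP tumors above them all. *Ighg3* was the lowest of the IgG genes at 2.98 to 15.31 TPM, and *Ighe*, the constant region of IgE, stayed at 0.12 to 0.64 TPM and was not tested.

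Set against the sum of the 8 heavy chain constant genes, *Igha* made up 89.1%, 93.8% and 86.9% in Trp53fl/fl tumors and 90.8%, 90.0% and 93.4% in VP tumors. The 4 IgG genes together took 9.05%, 5.44% and 11.9% in Trp53fl/fl tumors and 8.93%, 9.48% and 6.15% in VP tumors. Neither share separated the genotypes, unlike that of *Ighm*. Among light chains, *Igkc* took 98.7% to 99.3% of the constant region TPM in every tumor. All immunoglobulin genes together held 1.94% to 4.58% of the total TPM, with the lowest share in VP replicate 3 and the highest in VP replicate 1.

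**Figure D3:**
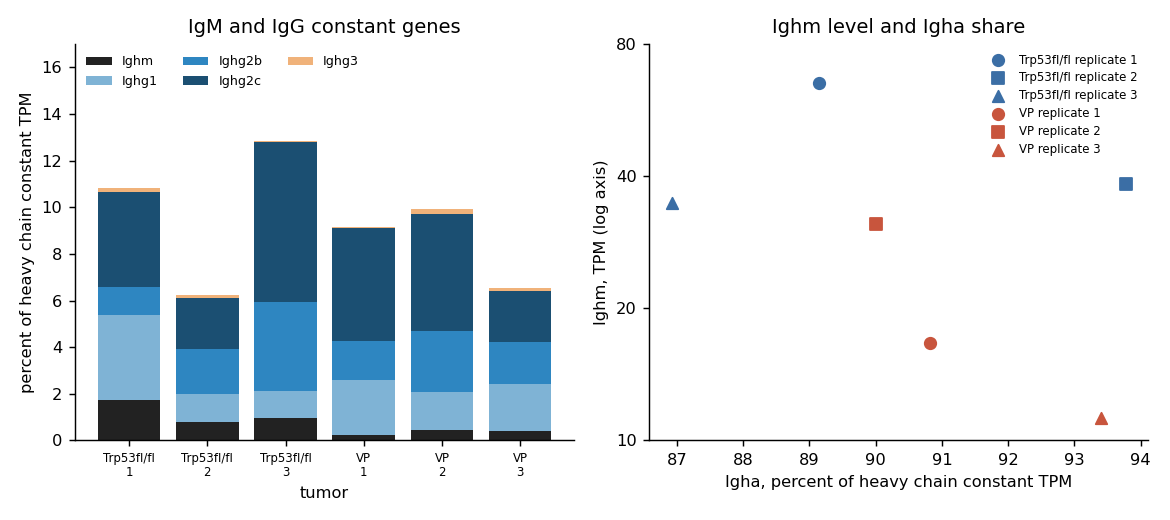
Left, bars from 0 give the percent of the heavy chain constant TPM held by *Ighm* and the IgG genes in each tumor (the rest is nearly all *Igha*). Right, *Ighm* TPM (log axis) against the *Igha* percent, 1 symbol per tumor. *Ighm* takes 0.780% to 1.75% in Trp53fl/fl and 0.239% to 0.455% in VP tumors, while the *Igha* share overlaps between the genotypes.

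The V segments, of which each B cell clone uses 1 for its heavy and 1 for its light chain, give a view of the same transcripts that the constant genes do not. The table holds 346 V segments, of which 151 were above 0 in all 6 tumors, 131 were at 0 in all and 172 were tested. Among those tested, 94 log2 fold changes were above 0 and 78 below, with a median of 0.05. An unadjusted p under 0.05 was reached by 17 of 172 (9.88%, against 12.5% of all genes tested), 12 of them higher in VP tumors and 5 lower, while 0 of 172 passed the adjustment (smallest limma adjusted p = 0.203). There was no overlap between genotypes for 6 segments higher and 3 lower in VP tumors, 5.23% of the 172 against 19.3% of all genes tested. VP replicate 3 held the lowest value of 53 of the 172 segments (30.8%) and VP replicate 1 the highest of 60 (34.9%), against 19.1% and 13.9% of all genes tested. Without VP replicate 3, 38 segments (22.1%) had an unadjusted p under 0.05, against 12.7% of all genes tested.

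The ends of 5 abundant segments are shown to make plain how alike segments of 1 family are. The capitals mark the last in-frame cysteine codon, the conserved residue just before the third hypervariable loop. The stretches are the last 50 whole codons of the GENCODE M21 transcripts, at chr12:115208095-115208244 (minus strand), chr12:113588269-113588418 (minus), chr6:68271116-68271265 (plus), chr6:68121676-68121825 (plus) and chr16:19085017-19085166 (minus) in the order printed.
Ighv1-55: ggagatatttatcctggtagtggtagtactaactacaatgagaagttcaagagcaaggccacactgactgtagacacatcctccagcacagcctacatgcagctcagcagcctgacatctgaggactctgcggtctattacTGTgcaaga
Ighv2-2: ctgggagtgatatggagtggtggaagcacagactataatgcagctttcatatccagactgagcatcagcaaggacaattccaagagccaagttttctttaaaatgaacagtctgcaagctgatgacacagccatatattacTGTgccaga
Igkv1-110: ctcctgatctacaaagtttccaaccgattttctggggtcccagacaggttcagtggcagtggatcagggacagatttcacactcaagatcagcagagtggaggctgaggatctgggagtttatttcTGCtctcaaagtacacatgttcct
Igkv1-117: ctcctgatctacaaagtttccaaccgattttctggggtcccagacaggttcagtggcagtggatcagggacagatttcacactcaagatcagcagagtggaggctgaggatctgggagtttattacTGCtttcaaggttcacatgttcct
Iglv1: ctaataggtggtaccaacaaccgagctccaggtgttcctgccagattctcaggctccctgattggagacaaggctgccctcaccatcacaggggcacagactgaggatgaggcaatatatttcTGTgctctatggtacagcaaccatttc
The coding sequences of *Igkv1-110* and *Igkv1-117* were 97.2% identical, while those of *Ighv1-55* and *Ighv2-2*, of different families, were 58.0% identical. The division of reads between *Igkv1-110* and *Igkv1-117* is therefore uncertain.

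*Igkv1-110* and *Igkv1-117* had the highest mean TPM of the kappa segments. *Igkv1-110* was at 1608.82, 1114.25 and 510.10 TPM in Trp53fl/fl tumors and at 1530.84, 1847.16 and 964.10 TPM in VP tumors, with full overlap (log2 fold change 0.52, limma adjusted p = 0.622). *Igkv1-117* was at 761.64, 546.38 and 686.68 TPM in Trp53fl/fl tumors and at 1896.33, 1761.10 and 804.89 TPM in VP tumors. All VP tumors exceeded all Trp53fl/fl tumors for *Igkv1-117*, VP replicate 3 only narrowly (log2 fold change 1.08 ± 0.33, limma adjusted p = 0.317). The next kappa segments, *Igkv6-23*, *Igkv6-17* and *Igkv10-96*, ranged from 287.89 to 1515.45 TPM, with log2 fold changes of 0.32, 0.66 and -0.04 and limma adjusted p between 0.583 and 0.980. In Trp53fl/fl replicate 2 the top kappa segment was *Igkv5-43* at 1157.28 TPM, which was at 110.30 to 416.87 TPM in the other tumors.

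Among heavy chain segments, the top segment differed from tumor to tumor. It was *Ighv1-82* (391.70 TPM), *Ighv1-72* (577.35 TPM) and *Ighv1-55* (349.65 TPM) in the Trp53fl/fl tumors and *Ighv2-2* (1170.52 TPM), *Ighv1-55* (706.12 TPM) and *Ighv1-81* (370.14 TPM) in the VP tumors. *Ighv2-2* held 10.5% of the heavy chain V transcripts of VP replicate 1, the highest share of any heavy chain segment in a tumor, and was at 63.88 to 418.85 TPM in the other tumors (log2 fold change 1.63 ± 0.82, limma adjusted p = 0.448). *Ighv1-81* was the 1 of the 5 most abundant heavy chain segments whose genotypes did not overlap. It was at 270.34, 123.99 and 219.94 TPM in Trp53fl/fl tumors and at 622.42, 354.84 and 370.14 TPM in VP tumors (log2 fold change 1.15 ± 0.33, limma adjusted p = 0.302). *Ighv1-55*, *Ighv1-34* and *Ighv1-72* had log2 fold changes of 0.43, -0.23 and 0.16, with limma adjusted p between 0.788 and 0.928.

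The evenness of segment use was compared by the effective number of segments, the number of equally used segments that would give the same concentration (inverse Simpson index). For the heavy chain it was 33.8, 32.5 and 33.5 in Trp53fl/fl tumors and 30.1, 29.9 and 33.0 in VP tumors. VP replicate 3 lay within the Trp53fl/fl range and the other VP tumors below it (exact permutation test, two-sided, n = 3 against 3, p = 0.2, Benjamini-Hochberg adjusted p = 0.8 over 8 values). The top heavy chain segment held 6.91%, 6.19% and 6.60% in Trp53fl/fl tumors and 10.5%, 7.57% and 8.13% in VP tumors, without overlap, and the exact permutation p of 0.1 (adjusted p = 0.8) is the smallest that 3 against 3 tumors can give. For kappa the effective number was 17.1, 26.9 and 31.5 in Trp53fl/fl tumors and 21.4, 19.1 and 23.03 in VP tumors. Here the Trp53fl/fl tumors spanned the whole range, with *Igkv1-110* at 16.8% of the kappa V transcripts in replicate 1 (exact permutation p = 0.5). Summed V segment TPM overlapped as the constant genes did, at 4553 to 11156 for the heavy chain and 8062 to 19264 for kappa, lowest in VP replicate 3 and highest in VP replicate 1 (exact permutation p = 0.7 and 0.5).

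**Figure D4:**
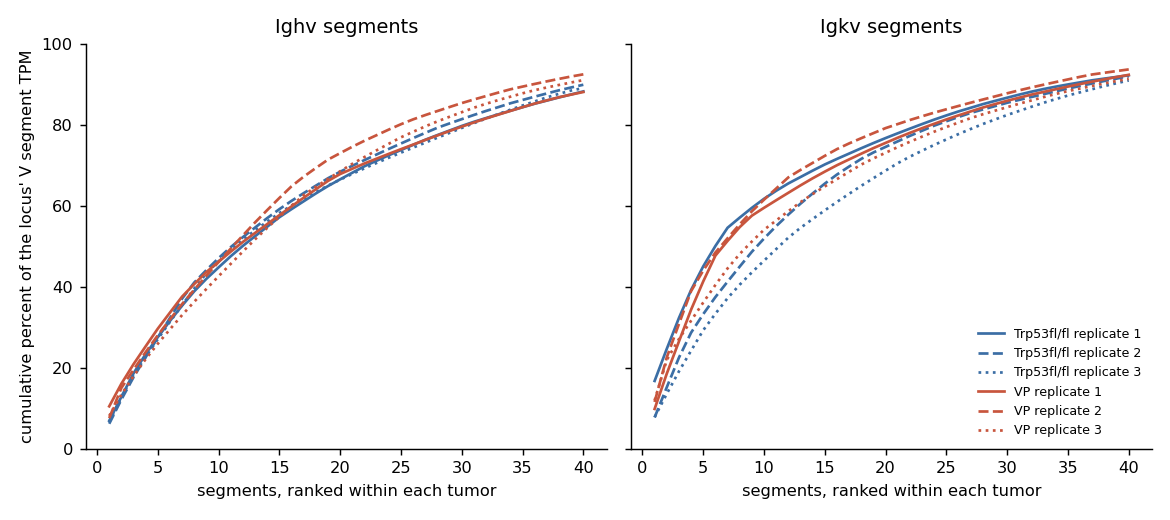
Cumulative percent of the V segment TPM of the heavy chain (left) and kappa (right) locus over the segments ranked within each tumor, blue for Trp53fl/fl and red for VP, 1 line style per replicate. The first 10 segments hold 42.6% to 47.1% of the heavy chain transcripts, and 46.5% to 61.8% of the kappa transcripts, where the tumors spread more.

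The number of abundant segments that tumors shared overlapped within and across genotypes. For the heavy chain, 2 tumors of the same genotype had 4 to 7 of their top 10 in common and 2 tumors of different genotypes 4 to 8. *Ighv1-19* was the 1 heavy chain segment in the top 10 of all 6 tumors, among 22 that reached the top 10 of any. For kappa the numbers were 6 to 8 within and 6 to 9 across genotypes, and *Igkv1-110*, *Igkv1-117*, *Igkv10-96*, *Igkv6-17* and *Igkv6-23* were in the top 10 of all 6. The lambda segments held 4.55% to 15.0% of the light chain V transcripts, nearly all from *Iglv1*, which was at 371.19 TPM in VP replicate 3 and at 2788.23 TPM in VP replicate 2.

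Plasma cell genes beyond the immunoglobulins all overlapped between the genotypes. *Sdc1*, *Txndc5* and *Xbp1* had means over the 6 tumors of 295, 229 and 172 TPM, against 30.5 TPM for *Mzb1*. Which cells held these transcripts was not tested. Of the 17 on the list, *Jchain* and *Mzb1* included, 17 were tested, 12 had log2 fold changes above 0 and 5 below, with a median of 0.13, and none had an unadjusted p under 0.05. *Pou2af1*, a coactivator of immunoglobulin transcription, was at 5.42, 6.92 and 6.06 TPM in Trp53fl/fl tumors and at 15.21, 13.49 and 4.49 TPM in VP tumors. Its VP tumors split as those of *Igha* did, with replicate 3 below all others (log2 fold change 0.61 ± 0.40, limma adjusted p = 0.534). *Derl3*, a factor of protein quality control in the endoplasmic reticulum, and *Tent5c*, a poly(A) polymerase that stabilizes immunoglobulin mRNAs, gave 0.43 and -0.33 on the log2 scale (limma adjusted p = 0.585 and 0.560). Of *Prdm1* and *Irf4*, the transcription factors that establish plasma cells, *Prdm1* ranged only from 3.72 to 5.43 TPM over the 6 tumors. *Irf4* was at 1.99, 2.65 and 2.31 TPM in Trp53fl/fl and at 3.63, 3.13 and 1.48 TPM in VP tumors. Its VP tumors also split as those of *Igha* did (log2 fold change 0.13 ± 0.27, limma adjusted p = 0.85).

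B cell genes were low throughout. Of 19 on the list, 9 passed the filter, 5 with log2 fold changes above 0 and 4 below, and none had an unadjusted p under 0.05. The defining genes *Ms4a1*, which encodes CD20, and *Pax5*, the master regulator of B cell identity, stayed at 0.21 to 1.42 TPM and 0.32 to 0.63 TPM. *Cd22*, an inhibitory receptor of B cells, had the smallest p of the list (log2 fold change -0.74 ± 0.40, limma adjusted p = 0.480), followed by *Vpreb3* (0.63), *Blnk* (0.17) and *Cd37* (-0.23). Over the whole list, 12 of 19 genes had a lower mean in VP tumors and 6 a higher one. Of all 15117 genes tested, 9187 had a log2 fold change below 0, so this count is near that of genes at large. The summed TPM of the list was 104 to 150 in Trp53fl/fl and 105 to 146 in VP tumors, and without *Blnk*, the most abundant of the list, 42.5 to 91.1 and 41.5 to 84.7. Of the germinal centre and follicle genes, 8 of 14 in the table were tested. Against 12.5% of all genes tested, 1 of these 8 had an unadjusted p under 0.05. This was *Bcl6*, the transcription factor of germinal centre B cells that epithelial and other cells also express, at 11.30, 10.66 and 9.85 TPM in Trp53fl/fl and 6.57, 7.97 and 9.35 TPM in VP tumors (log2 fold change -0.38 ± 0.16, limma adjusted p = 0.389). *Cxcl13*, *Ltb* and *Ccr7*, which organize lymphoid follicles, gave 0.81, -0.39 and -0.27 on the log2 scale (limma adjusted p = 0.519, 0.687 and 0.769).

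Genes that induce IgA, attract its plasma cells or carry it across the epithelium had higher means in VP tumors more often than lower ones. Of 17, 13 were tested, 10 with log2 fold changes above 0 and 3 below, with a median of 0.25, and 3 of the 13 had an unadjusted p under 0.05, all higher in VP, against 12.5% of all genes tested. Besides *Pigr* these were *Tnfsf13*, which encodes APRIL, a survival factor of plasma cells, and *Ccl28*, an epithelial chemokine that draws IgA plasma cells. *Tnfsf13* was at 11.76, 12.80 and 17.29 TPM in Trp53fl/fl and 19.98, 21.83 and 17.64 TPM in VP tumors, just without overlap (log2 fold change 0.49 ± 0.17, limma adjusted p = 0.341). *Ccl28* was at 9.24, 14.13 and 10.84 TPM in Trp53fl/fl and 22.43, 18.55 and 12.91 TPM in VP tumors (log2 fold change 0.60 ± 0.23, limma adjusted p = 0.370). *Aldh1a2*, an enzyme that makes retinoic acid, followed with 0.54 ± 0.24 (limma adjusted p = 0.406). *Itga4*, an integrin chain of gut-homing lymphocytes, named after its values were seen, was at 2.43, 3.16 and 2.67 TPM in Trp53fl/fl and 1.96, 2.24 and 1.52 TPM in VP tumors, lower in VP without overlap (log2 fold change -0.37 ± 0.19, limma adjusted p = 0.448). *Ccr10*, the receptor for CCL28 on IgA plasma cells, was at 2.24, 2.27 and 2.83 TPM in Trp53fl/fl and 2.07, 4.88 and 1.90 TPM in VP tumors.

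Receptors for the constant regions had higher means in VP tumors throughout. Of 7, 6 were tested, all 6 log2 fold changes were above 0 with a median of 0.40, 3 had an unadjusted p under 0.05 and 4 showed no overlap, against 12.5% and 19.3% of all genes tested. *Fcgr3*, an activating receptor for IgG, was at 44.36, 46.42 and 38.83 TPM in Trp53fl/fl and 62.41, 63.18 and 51.77 TPM in VP tumors (log2 fold change 0.44 ± 0.13, limma adjusted p = 0.302). *Fcgrt*, the neonatal Fc receptor that recycles IgG, was at 27.29, 37.79 and 27.54 TPM in Trp53fl/fl and 40.88, 44.36 and 42.54 TPM in VP tumors (log2 fold change 0.47 ± 0.15, limma adjusted p = 0.319). Both were higher in every VP tumor than in any Trp53fl/fl tumor, and so were *Fcer1g*, the shared signalling chain, and *Fcgr4*, at 0.34 and 0.51 on the log2 scale (limma adjusted p = 0.369 and 0.416). Macrophages and neutrophils, which carry these receptors, also gave higher summed marker TPM in VP tumors without overlap, at 548 to 593 against 602 to 767 over 8 macrophage markers and 382 to 688 against 1060 to 1808 over 8 neutrophil markers. The macrophage markers did not all move together, with 6 log2 fold changes above 0 and 2 below, *Csf1r* at -0.08 and *Adgre1* at -0.27. All 8 neutrophil markers were above 0. Of the macrophage and neutrophil markers, 2 of 8 and 5 of 8 had an unadjusted p under 0.05, all higher, and 1 passed the adjustment (*Ngp*, a granule protein gene of neutrophils, log2 fold change 4.37, limma adjusted p = 0.00804, or 0.0513 without Trp53fl/fl replicate 3). Their part in the receptor values was not tested.

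**Figure D5:**
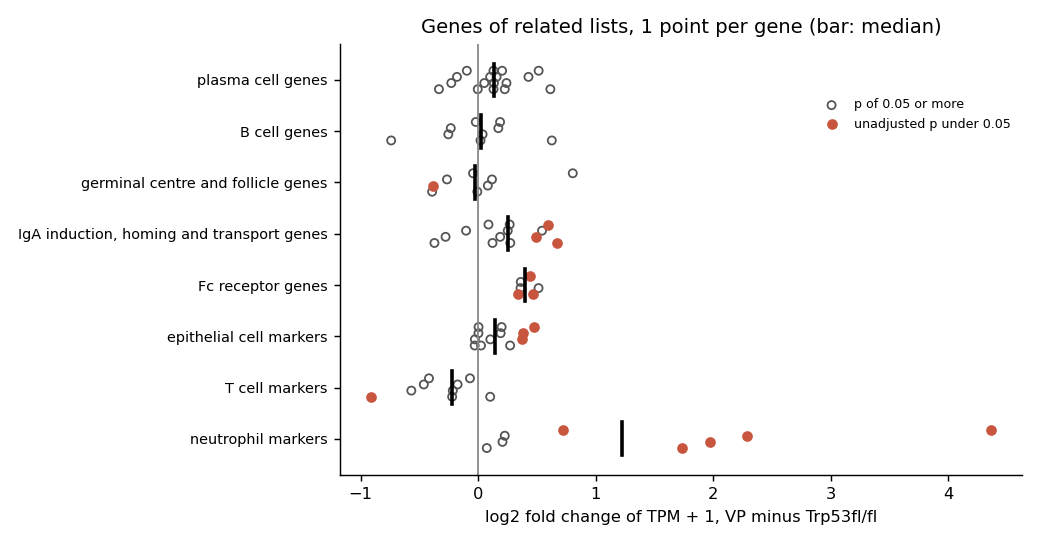
Log2 fold changes (VP minus Trp53fl/fl, TPM + 1 scale) of the tested genes of 8 lists, 1 point per gene, filled where the unadjusted limma p is under 0.05, with a bar at each median. The medians lie at 0.13 for plasma cell genes, 0.02 for B cell genes, 0.25 for the IgA induction and transport genes and 0.40 for the Fc receptors.

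The genes whose profile over the 6 tumors was nearest to that of *Igha* were measured by the root mean square difference of log2(TPM + 1) after each gene's own mean was subtracted. Among the 10 genes, *Igkc* was nearest at 0.119 and *Jchain* next at 0.170, ahead of *Mzb1* at 0.264, *Pigr* at 0.305, *Ighg2b* at 0.531, *Ighg1* at 0.566, *Cd79a* at 0.573, *Ighg2c* at 0.644 and *Ighm* at 0.927. Outside the immunoglobulin loci, the 3 nearest were *Chl1* at 0.145, *Gm5431* at 0.160 and *Ddah1* at 0.160, with *Chl1* itself at only 0.72 to 2.68 TPM. Near to *Jchain* were *Ifih1*, a sensor of viral RNA, at 0.164 and *Chl1* at 0.177. Nearest to *Pigr* were *Fam124a* at 0.0726, *Oasl1* at 0.0749 and *Ache* at 0.0756, while no other of the 10 genes came closer to it than *Igkc* at 0.251. These distances describe 6 tumors and were not tested.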

How the data were processed

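The authors selected poly(A) RNA, sequenced both ends and deposited TPM per gene with 2 decimals for 6 tumors, without pooling. The submitters' processing notes name HISAT2, StringTie and the build mm9, and versions are not given in the sources used here. TPM of a tumor sum to a fixed total, so each value depends on all other genes, and values of short V segments and related constant genes may depend on how shared reads were assigned. The depth is unknown and no counting interval can be given. No 2 columns were identical and each was assigned through its code in the labels.

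Genes that reached 1 TPM in 3 or more of the 6 tumors were tested on log2(TPM + 1) with limma 3.58.1 in R 4.3.3 (empirical Bayes with trend, Benjamini-Hochberg over 15117 genes), which was tested on simulated data. V segments were summed by gene name. Repertoire values were compared by exact permutation tests (scipy 1.17.1), which cannot go below 0.1. Sequences, identities (pairwise global alignment, Biopython 1.88) and positions came from GENCODE M21 and the promoters from RefSeq. The genes and lists were chosen with earlier results of these data known. The text names the 10 genes, the other constant genes, the 5 most abundant V segments of the heavy chain and kappa locus and those of lambda, up to 4 genes of smallest p per gene list and any with an adjusted p under 0.05, and the 3 nearest profiles, of which not all are reported here. Other genes, and the top segments of single tumors, were named after their values were seen. Lists are described by counts and medians. The alternatives were a pseudocount of 0.1, no filter, a filter on a mean of 5 TPM, quantile normalization, median-of-ratios rescaling, rescaling without immunoglobulin genes, centring on 12 epithelial markers, a replicate block, empirical Bayes without trend, segments of at least 1 TPM only, and each tumor left out.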

Additional observations from a re-analysis of the deposited data

How the results depend on the processing

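Of the 10 genes, 7 kept the direction of their fold change under all 15 alternatives and none gained or lost an adjusted call. *Ighm* lay between -1.62 and -0.93 and *Pigr* between 0.50 and 0.86 over all alternatives, with an unadjusted p under 0.05 in each and adjusted p between 0.124 and 0.664. The adjusted p of 0.124, of *Ighm*, came from epithelial centring. There 3931 of all 15117 genes tested had an unadjusted p under 0.05, against 1892 without centring. The 3 with changes of sign were *Cd79a* (-0.13 under epithelial centring, -0.24 to 0.36 with 1 tumor left out), *Ighg2b* (-0.16 to 0.78) and *Ighg2c* (-0.13 to 1.11), the last 2 only with 1 tumor left out. Epithelial centring moved the median of all genes to -0.24, from -0.07. Counts of genes called over all genes were 7 with no expression filter, 40 under epithelial centring and 10 with the replicate block, and 6 to 28 with 1 tumor left out. The replicate block gave 4 of the 10 genes (*Ighg1* and *Mzb1* added) and 33 V segments with an unadjusted p under 0.05, against 1648 of all 15117 genes tested. Same-numbered tumors did not deviate together (r of 0.0185, -0.052 and 0.0175), against -0.108 to 0.0952 for tumors of different numbers. With deviations from means of 3 tumors, these values cannot settle whether the numbers pair the tumors, and the labels do not say. Leaving out 1 tumor gave 2 to 6 genes of the 10 and 21 to 38 V segments with an unadjusted p under 0.05, against 7.48% to 16.1% of all genes tested. It gave 2 to 6 of the 10 without overlap, against 25.1% to 36.4% of all genes tested. Epithelial centring left 1 gene without overlap. The *Trp53* fold change of -1.87 was no longer past the adjustment with no expression filter and with the replicate block, and it was -2.02 to -1.74 with 1 tumor left out. The cause of these moves was not tested.

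*Ngp* lost its call with no expression filter and without Trp53fl/fl replicate 3. Among the other named genes, reversals occurred for *Ighv1-72* (-0.000497 under epithelial centring), *Igkv10-96* (0.036 under median-of-ratios rescaling), *Iglv1* (-0.0049 under quantile normalization and -0.13 under epithelial centring) and *Iglv2* (-0.0303 under epithelial centring). With 1 tumor left out, the ranges that crossed 0 were *Ighg3* -0.25 to 0.70, *Iglc2* -0.64 to 0.0859, *Ltb* -0.63 to 0.0428, *Ccr7* -0.63 to 0.079, *Ighv1-55* -0.10 to 1.02, *Ighv1-34* -0.58 to 0.0449, *Ighv1-72* -0.25 to 0.79, *Igkv6-23* -0.0722 to 0.98, *Igkv10-96* -0.57 to 0.54, *Iglv1* -0.63 to 0.82, *Iglv3* -0.0341 to 1.26, *Iglv2* -0.34 to 0.69, *Ighv1-82* -1.01 to 0.32 and *Igkv5-43* -1.24 to 0.45. The difference in the number of segments at 1 TPM or more ranged from -2.33 to 4.67 for the heavy chain and from -1.0 to 0.667 for kappa, and that in the share of the top kappa segment from -1.15 to 3.35 percentage points.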

Other observations

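The lambda light chain gave an unequal pair of values. In mice *Iglv1* is joined to *Iglc1* or *Iglc3*, and *Iglv2* to *Iglc2*. *Iglv1* was at 371.19 to 2788.23 TPM over the 6 tumors, while *Iglc1* was listed at 0 in Trp53fl/fl replicates 1 and 2 and in VP replicate 1, and reached 10.06 TPM in Trp53fl/fl replicate 3, 22.73 TPM in VP replicate 2 and 1.89 TPM in VP replicate 3. *Iglc3* was listed at 0 in VP replicates 1 and 2 and at no more than 4.24 TPM elsewhere. *Iglc2* was at 18.05 to 65.64 TPM, *Iglv2* at 3.66 to 18.50 TPM and *Iglv3*, the other lambda V segment, at 3.87 to 28.33 TPM. The summed lambda V segments were 15.9 to 38.3 times the summed lambda constant genes, against 2.08 to 2.73 times for *Igkv* over *Igkc* and 1.36 to 1.90 times for *Ighv* over the heavy chain constant genes. The coding sequences of *Iglc2* and *Iglc3* were 96.5% identical, those of *Iglc1* and *Iglc2* 73.7% and those of *Iglv1* and *Iglv2* 96.3%. What sets the lambda values apart was not tested, and the share of lambda among light chains, 0.667% to 1.34% by constant genes and 4.55% to 15.0% by V segments, depends on which of them is counted.

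Some V segments of lower abundance had wider differences than the named ones. *Ighv1-69* had the smallest p of all V segments, at 49.36, 98.12 and 27.59 TPM in Trp53fl/fl tumors and 16.34, 7.86 and 7.61 TPM in VP tumors (log2 fold change -2.25 ± 0.47, limma adjusted p = 0.203). *Ighv1-5* was at 21.85, 127.96 and 16.46 TPM in Trp53fl/fl and 129.13, 697.35 and 173.27 TPM in VP tumors, where the lowest VP and the highest Trp53fl/fl value nearly met (log2 fold change 2.76 ± 0.88, limma adjusted p = 0.323). *Igkv4-91* was at 131.05, 61.45 and 11.04 TPM in Trp53fl/fl and 184.91, 514.41 and 184.95 TPM in VP tumors (log2 fold change 2.496 ± 0.85, limma adjusted p = 0.341). Single tumors also stood out, as *Igkv1-122* did at 166.20 TPM in Trp53fl/fl replicate 3 against 0.00 to 5.62 TPM in the others. These segments were chosen after their values were seen.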
